A study of Arabidopsis thaliana with 6 samples.

Results

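GH9C2 (AT1G64390, probe set 259736_at) and EXLA1 (AT3G45970, probe set 252563_at) are 2 cell wall genes of Arabidopsis thaliana, out of 13286 loci that had a named probe set on the array. They were chosen by their measured log2 signals, because GH9C2 was higher and EXLA1 lower in the mutant rns2-2 than in the wild type Col-0 with little spread among arrays. That genotype difference is therefore given for both genes as a description, without a test. Each gene had 1 probe set.

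Transcripts were measured in whole seedlings with Affymetrix ATH1 arrays, on which short oligonucleotides bind labelled RNA. Col-0 was the wild type of that accession, and rns2-2, also in the Col-0 background, carries a mutant allele of RNS2, an RNase T2 enzyme involved in the turnover of ribosomal RNA. Both groups were 10 days old, were raised on MS-agar under the same light and temperature, and received no treatment that the labels name. Each genotype had 3 arrays, described by the labels as independent biological samples, and rns2-2 stands for 1 mutant allele.

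The plant cell wall is a network of cellulose microfibrils tied together by xyloglucan and embedded in pectin, and growing cells must loosen this network to expand. Endoglucanases of glycoside hydrolase family 9 (GH9) cut chains of 1,4-linked glucose such as those of cellulose. Members of its class C, to which GH9C2 belongs, carry a carbohydrate-binding module at the end of the protein in addition to the catalytic domain. Expansins loosen the contact between wall polymers without cutting them. EXLA1 belongs to the expansin-like A genes, which resemble expansins in their 2-domain build, and whether their proteins loosen walls has not been settled.

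GH9C2 had log2 signals of 6.95, 6.70 and 6.68 in Col-0 replicates 1, 2 and 3. In rns2-2 its log2 signals were 8.52, 8.18 and 8.54. All rns2-2 arrays lay above all Col-0 arrays, and the lowest rns2-2 array was replicate 2. The means were 6.77 ± 0.15 in Col-0 and 8.41 ± 0.20 in rns2-2 (SD, n = 3 arrays each), a log2 difference of 1.64 (SE 0.15), or 3.12-fold. Set pairwise, an rns2-2 array exceeded a Col-0 array by 1.23 to 1.87 log2 units, that is 2.35-fold to 3.65-fold.

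EXLA1 had log2 signals of 10.00, 9.93 and 9.93 in Col-0 replicates 1, 2 and 3. Its log2 signals in rns2-2 were 8.73, 8.94 and 9.06. All rns2-2 arrays lay below all Col-0 arrays. The Col-0 arrays were within 0.071 log2 units of each other, whereas the rns2-2 arrays spanned 0.34. The means were 9.95 ± 0.04 in Col-0 and 8.91 ± 0.17 in rns2-2 (SD, n = 3 arrays each), a log2 difference of -1.04 (SE 0.12), or 2.06-fold lower. Pairwise, the gap between a Col-0 and an rns2-2 array ran from 0.87 to 1.27 log2 units, that is from 1.82-fold to 2.42-fold. In whole seedlings, fewer cells that make a transcript and less of it per cell cannot be told apart.

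**Figure D1:**
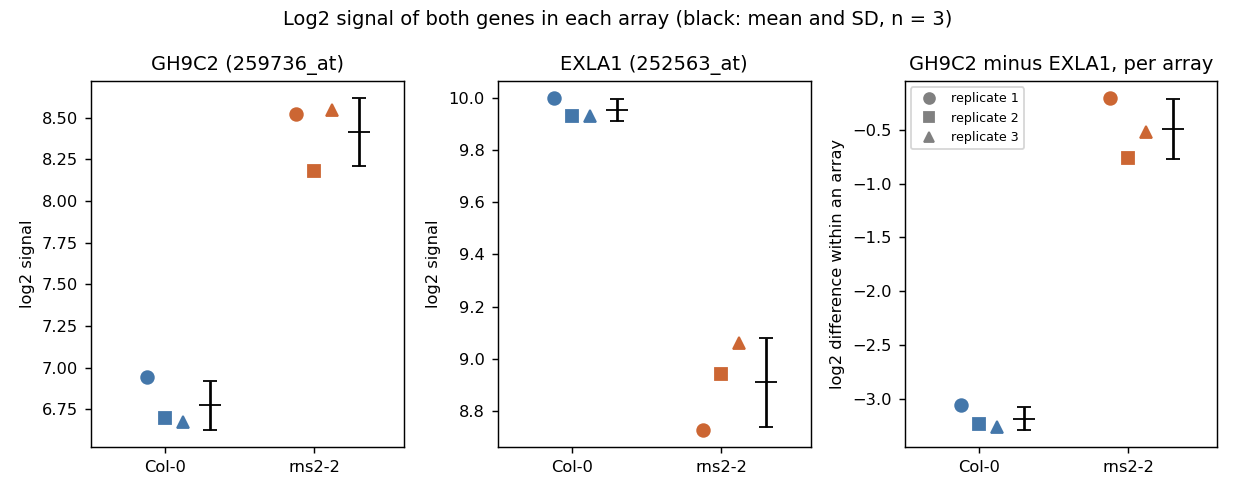
Log2 signal of GH9C2 (left) and EXLA1 (middle) in each array, and the log2 difference GH9C2 minus EXLA1 within each array (right). Points are single arrays, shaped by replicate number, and black bars are the mean and SD of 3 arrays; the axes do not start at 0. The genotypes do not overlap in any of the panels, with GH9C2 at 6.68 to 6.95 in Col-0 and 8.18 to 8.54 in rns2-2, and EXLA1 at 9.93 to 10.00 and 8.73 to 9.06.

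The spacing between the genes within each array combines both differences, so its direction was set by the choice of the genes. GH9C2 minus EXLA1 was -3.06, -3.23 and -3.25 log2 units in the Col-0 arrays, against -0.20, -0.76 and -0.52 in the rns2-2 arrays. The means were -3.18 ± 0.11 and -0.50 ± 0.28 (SD, n = 3 arrays each), so the spacing between the probe sets was 2.68 log2 units smaller in rns2-2. Signals of different probe sets do not rank the abundance of their transcripts, so only the change in this spacing can be read. Within genotypes the genes did not follow each other: their deviations from the genotype means correlated at 0.054 over the 6 arrays, whereas their levels correlated at -0.96, a value set by the genotype difference for which they were chosen.

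Across the array, the genotypes did not overlap, with rns2-2 higher, at 1645 of 22746 probe sets (7.23%), and with rns2-2 lower at 2558 (11.2%). A log2 difference of at least 1 without overlap was found at 0.343% of probe sets upward and at 0.809% downward. By the width of the gap between the genotypes, GH9C2 ranked 2 among the probe sets higher in rns2-2 and EXLA1 ranked 35 among those lower. By the size of the difference, they ranked 18 and 346. After Benjamini-Hochberg adjustment over all 22746 probe sets, limma called 1 probe set (0.0044%) at 0.05. The count was 333 without Col-0 replicate 1 and 32 without rns2-2 replicate 1. These ranks use the contrast on which the genes were chosen.

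The spread among arrays was small for EXLA1 and intermediate for GH9C2. The pooled within-genotype SD was 0.12 log2 units for EXLA1, and 10.2% of the 1000 probe sets of most similar mean signal had a smaller one. For GH9C2 it was 0.18, with 27.4% of such probe sets below it, or 45.0% of all tested probe sets. Little spread was part of the choice of the genes, so these shares are a description only. Both genes were above the array medians of 6.51 to 6.66 in every array, though GH9C2 exceeded them by little in Col-0. No detection calls were used.

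**Figure D2:**
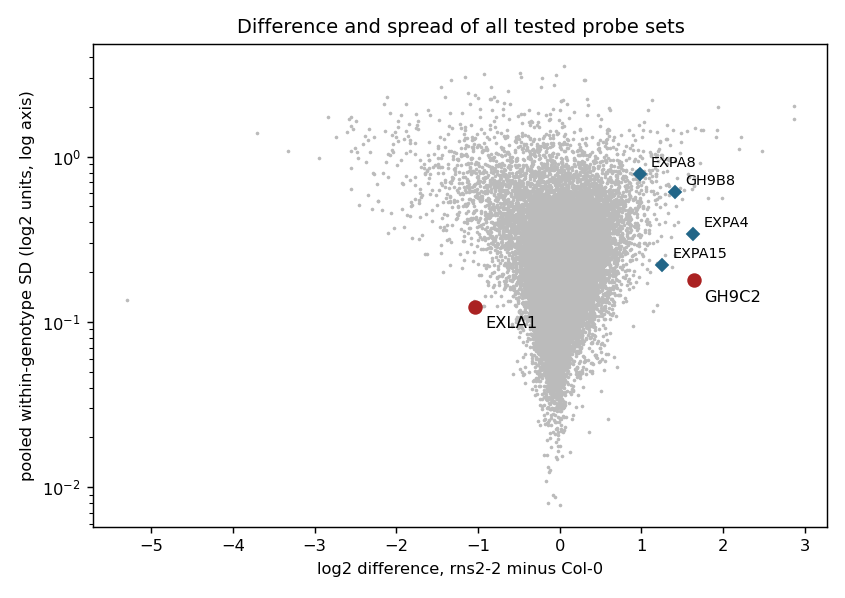
Log2 difference, rns2-2 minus Col-0 (horizontal), against the pooled SD within genotypes on a log axis (vertical) for the 22746 tested probe sets (grey). Red circles are GH9C2 (1.64, SD 0.18) and EXLA1 (-1.04, SD 0.12). They lie at the lower edge of the cloud for differences of their size, and little spread was part of their choice. Blue diamonds are 4 other wall genes, EXPA4, EXPA8, EXPA15 and GH9B8. These 4 are examples, and all have larger spreads than GH9C2 and EXLA1, the largest at EXPA8 and GH9B8. Low spread was not particular to GH9C2 and EXLA1 among wall genes. CSLC6, not marked here, had SDs of 0.095 in Col-0 and 0.11 in rns2-2, and GH9B7 had 0.11 and 0.17.

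Replicate 1 stood apart from replicates 2 and 3 in both genotypes over the whole array. Taken over all probe sets, log2 signals of replicates 2 and 3 differed with an SD of 0.20 for Col-0 and 0.31 for rns2-2. Those of replicate 1 differed from either with an SD of 0.58 to 0.61. The replicate 1 arrays did not group by genotype. Col-0 replicate 1 differed less from each rns2-2 array (SD 0.51 to 0.56) than from the other Col-0 arrays. Likewise, rns2-2 replicate 1 differed less from each Col-0 array (SD 0.54 to 0.58) than from the other rns2-2 arrays. At GH9C2, replicate 1 deviated from the mean of replicates 2 and 3 by 0.26 in Col-0 and 0.16 in rns2-2, beside medians of 0.22 and 0.19 over all probe sets. At EXLA1, replicate 1 deviated by 0.071 in Col-0 and by -0.27 in rns2-2. Without the replicate 1 arrays of both genotypes, the log2 differences were 1.67 for GH9C2 and -0.93 for EXLA1.

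A further division of the arrays crossed the genotypes. The 4 poly-A control RNAs, which the kit adds before labelling, averaged 7.78, 7.78 and 7.87 log2 units in Col-0 replicate 1 and rns2-2 replicates 2 and 3, and 6.90, 6.89 and 6.93 in the remaining arrays, and each of the 4 separated these sets of 3 arrays. The labels do not say what the sets are. GH9C2 had a log2 difference of 1.42 within the set with higher controls and of 1.83 within the other. EXLA1 had log2 differences of -0.999 and -1.20. Each set held 1 array of one genotype and 2 of the other, so these values have no replicate in one arm, and they use the contrast on which the genes were chosen. With the set as a block, the differences were 1.63 (SE 0.16) and -1.10 (SE 0.11). The part of the sets in the differences was not tested.

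RNA quality and organ markers varied among arrays as well. Probe sets at the 3′ ends of the control transcripts for actin, GAPDH and ubiquitin exceeded those at the 5′ ends by 1.19 to 2.43 log2 units in Col-0 arrays, highest in replicate 1, and by 0.79 to 1.65 in rns2-2 arrays, lowest in replicate 1. Of 10 root markers 3 were measured, PYK10 and the alpha-expansins EXPA7 and EXPA18. Their median log2 signal was 5.65, 5.80 and 6.32 in the Col-0 arrays and 6.89, 6.10 and 5.48 in the rns2-2 arrays. PYK10 was far brighter, so each median was the value of EXPA7 or EXPA18, whose means lay below the median probe set. The shoot list had 1 measured gene of 11, RCA (Rubisco activase), at 13.90 to 13.96 in Col-0 and 13.66 to 14.14 in rns2-2. PYK10, a beta-glucosidase abundant in roots, was at 12.54 ± 0.16 in Col-0 and 12.74 ± 0.14 in rns2-2 (SD, n = 3), so markers of both organs were present in the seedlings. The part of these values in the differences of GH9C2 and EXLA1 was not tested. No named probe set measured RNS2, so the genotype labels were not checked by its transcript.

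Of the 25 genes of the GH9 family, 15 were measured, GH9C2 and 14 others. None of the 14 rose or fell by the adjusted limma test at 0.05 (0 in either direction, background 0.0044%). GH9B8 alone had an unadjusted limma p under 0.05 (1 of 14, background 10.7% in either direction). The median log2 difference of the 14 was -0.03, against -0.04 over all probe sets, with 5 above 0 and 9 below. Of the 14, only GH9B7, GH9B8 and GH9B13 had a mean signal above the median probe set. Most of the measured relatives were thus dim in these seedlings, where a difference is hard to measure.

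GH9B8, an endoglucanase of class B, had log2 signals of 7.19, 5.78 and 5.74 in Col-0 and of 7.41, 7.62 and 7.91 in rns2-2. Replicate 1 of Col-0 lay well above the other Col-0 arrays and just below the rns2-2 arrays, so the genotypes did not overlap. Its log2 difference was 1.41 (SE 0.41, limma adjusted p = 0.364). Without Col-0 replicate 1 it passed, at 1.88 (limma adjusted p = 0.0245), and over all alternatives its limma adjusted p ran from 0.000186, with replicates 2 and 3 only, to 0.733. Within the sets of arrays with higher and lower controls it was 0.57 and 1.65.

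GH9B13, of the same class, had log2 signals of 8.63, 7.38 and 7.53 in Col-0 and of 8.30, 8.84 and 9.17 in rns2-2. Here replicate 1 of Col-0 exceeded replicate 1 of rns2-2, and the genotypes overlapped. Its log2 difference was 0.92 (SE 0.39, limma adjusted p = 0.472). With replicates 2 and 3 only it passed, at 1.55 (limma adjusted p = 0.000753), and over all alternatives its limma adjusted p reached up to 0.771. GH9B7, bright in every array, had means of 9.67 ± 0.11 in Col-0 and 9.73 ± 0.17 in rns2-2 (SD, n = 3), a difference within the spread between arrays.

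The class C relatives of GH9C2 did not share its difference as measured. GH9C1 had a log2 difference of 0.18 (SE 0.22) and GH9C3 one of -0.01 (SE 0.14), both with overlap between the genotypes and with means below the array medians. Class A, whose best-known member KORRIGAN is anchored in membranes and needed for cellulose synthesis, was measured by GH9A3 at -0.21 (SE 0.14) and GH9A4 at -0.04 (SE 0.10). The remaining class B genes, GH9B5, GH9B6, GH9B11, GH9B12, GH9B16, GH9B17 and GH9B18, had log2 differences from -0.13 to 0.07. They were dim in every array, and their levels could not be separated from background.

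**Figure D3:**
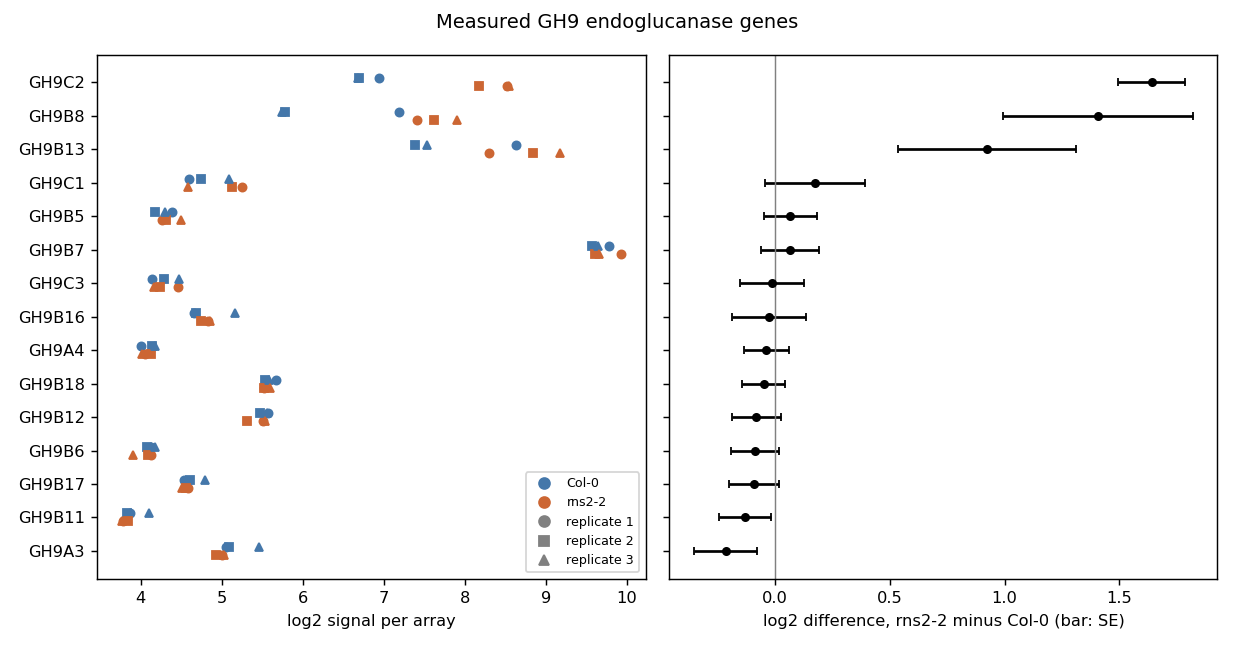
The 15 measured GH9 genes, ordered by log2 difference. Left, log2 signal in each array (blue Col-0, orange rns2-2, shape by replicate number); right, log2 difference rns2-2 minus Col-0 with its limma SE. GH9C2, GH9B8 and GH9B13 lie at 1.64, 1.41 and 0.92, and the other genes between -0.21 and 0.18; in GH9B8 and GH9B13, Col-0 replicate 1 sits among or near the rns2-2 arrays.

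All 4 expansin-like genes were measured. EXLA1 was chosen with genotypes that do not overlap, so it is left out of the counts. Of the other 3, 0 were without overlap (background 18.5% in either direction). None of the other 3 rose or fell by the adjusted limma test (0 in either direction at 0.05, background 0.0044%). At an unadjusted limma p under 0.05 there were 0 as well (background 10.7%). EXLA2 had log2 signals of 6.89, 6.74 and 6.77 in Col-0 and of 7.58, 6.69 and 6.75 in rns2-2. Replicate 1 of rns2-2 alone was high, and the log2 difference of 0.21 (SE 0.25) became -0.08 without it.

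EXLA3, which is the next protein-coding locus before EXLA1 on chromosome 3, had log2 signals of 5.94, 5.03 and 4.96 in Col-0 and of 4.83, 4.89 and 5.29 in rns2-2. Replicate 1 of Col-0 alone was high. The log2 difference of -0.31 (SE 0.29) became 0.01 without that array. EXLB1, the expansin-like B gene, ranged from 7.15 to 7.57 in Col-0 and from 6.84 to 7.98 in rns2-2, a wide overlap with a log2 difference of -0.01 (SE 0.30). Cross-hybridisation between EXLA1 and its relatives was not tested, since the probe sequences were not used here.

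Among the true expansins, 0 of 10 measured alpha-expansins and 0 of 4 measured beta-expansins passed the adjusted limma test in either direction (background 0.0044%). EXPA15 had log2 signals of 7.75, 7.73 and 7.45 in Col-0 and of 9.10, 8.60 and 8.99 in rns2-2, without overlap (log2 difference 1.25, SE 0.17, limma adjusted p = 0.26). EXPA4, of the loci near RNS2 on chromosome 2, had a log2 difference of 1.63 (SE 0.24). EXPA8 had one of 0.98 (SE 0.52), with Col-0 replicate 1 at 9.01 among rns2-2 values of 8.40 to 9.14. Without Col-0 replicate 1, where 1.46% of all probe sets were called, EXPA4, EXPA8 and EXPB3 passed, all higher in rns2-2.

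EXPB3, a beta-expansin, had log2 signals of 7.87, 7.37 and 7.28 in Col-0 and of 9.24, 8.59 and 8.76 in rns2-2. The genotypes did not overlap, and its log2 difference was 1.36 (SE 0.23, limma adjusted p = 0.277). EXPB1 was at 0.92 (SE 0.38), with rns2-2 replicate 1 at 6.54 beside 5.48 and 5.04 in the other rns2-2 arrays. EXPB2, dim in all arrays, was at -0.25 (SE 0.09). The median log2 difference was 0.30 for the alpha-expansins and 0.38 for the beta-expansins, beside -0.01 for the 3 other expansin-like genes.

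**Figure D4:**
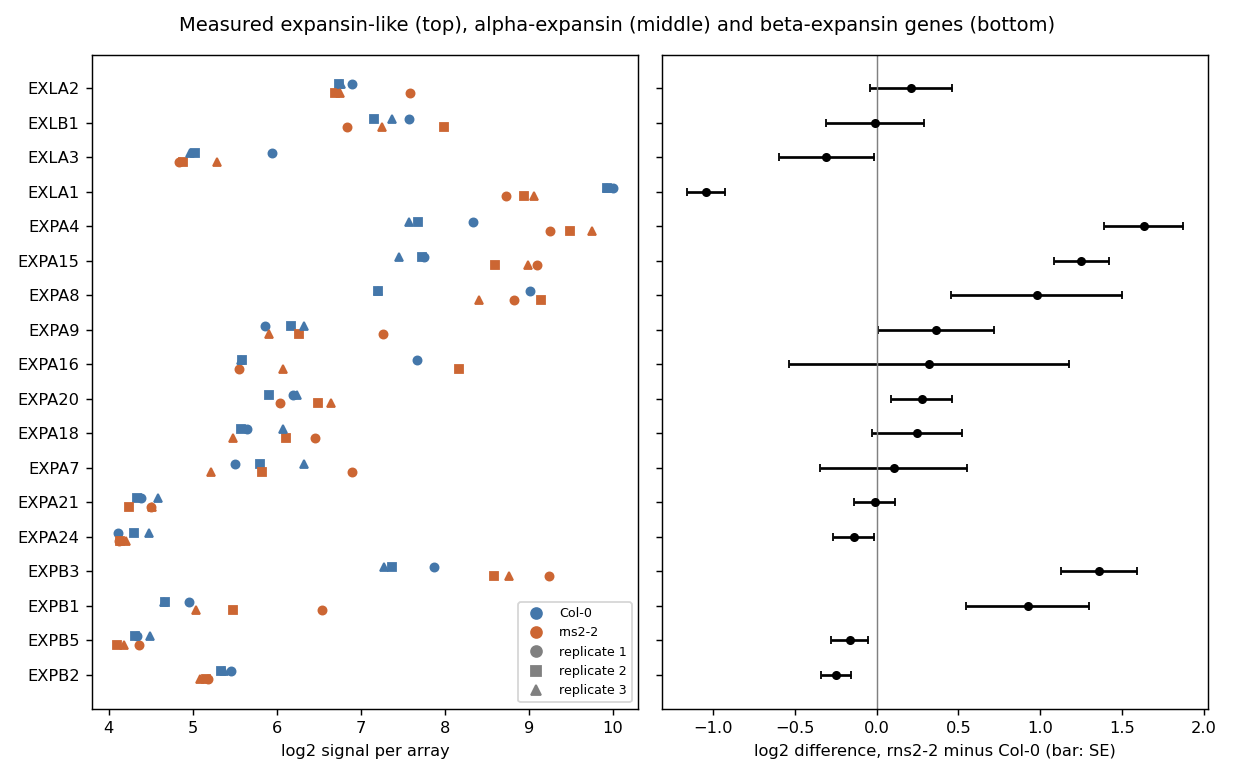
The 4 expansin-like genes (top), 10 alpha-expansins (middle) and 4 beta-expansins (bottom). Left, log2 signal in each array (blue Col-0, orange rns2-2, shape by replicate number); right, log2 difference rns2-2 minus Col-0 with its limma SE. EXLA1 lies at -1.04, while EXPA4, EXPB3 and EXPA15 lie at 1.63, 1.36 and 1.25.

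Other wall genes were compared with the same fit. In all, 51 wall genes besides GH9C2 and EXLA1 were measured of 183 listed in 10 lists. By the adjusted limma test, 0 rose or fell (background 0.0044%), against 4 without Col-0 replicate 1, where 1.46% of all probe sets were called. At an unadjusted p under 0.05, 8 were higher and 2 lower, and without overlap 9 were higher and 5 lower. Over all probe sets, 5.35% were higher and 5.31% lower at that unadjusted p, and 7.23% were higher and 11.2% lower without overlap. The median log2 difference of the 51 was 0.09.

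Of the xyloglucan endotransglucosylases, which cut and rejoin xyloglucan chains, 10 of 33 were measured. XTH20 had a log2 difference of 0.85 (SE 0.27) and XTH16 one of 0.67 (SE 0.26). EXGT-A3, also known as XTH27, was lower in rns2-2 without overlap, as EXLA1 was. Its log2 signals were 11.74, 11.73 and 11.81 for Col-0, against 11.54, 11.06 and 10.75 for rns2-2, a log2 difference of -0.64 (SE 0.21, limma adjusted p = 0.397).

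Of the cellulose synthase-like genes, which include makers of the xyloglucan backbone in subfamily C, 7 of 26 were measured. CSLC6 had log2 signals of 6.83, 7.01 and 6.87 in Col-0 and of 7.65, 7.44 and 7.47 in rns2-2. Its genotypes did not overlap, and its log2 difference was 0.61 (SE 0.11, limma adjusted p = 0.281). CSLA01 was at -0.18 (SE 0.10) and CSLC5 at 0.28 (SE 0.20). COB, a cell-surface protein needed for oriented cellulose deposition and the 1 measured gene of 17 on the cellulose synthesis list, was at -0.09 (SE 0.24). The lists of pectin methylesterases and beta-galactosidases had 1 measured gene each, PME61 at 0.66 (SE 0.47) and BGAL16 at -0.26 (SE 0.16), and the fasciclin-like list had 0. PME61 stood at 6.73 in rns2-2 replicate 2, beside 5.05 and 5.12 in the other rns2-2 arrays and a Col-0 mean of 4.98, so 1 array carried most of its difference.

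The loci that flank the genes were measured at 8 of 12 positions, counting 3 protein-coding loci on each side in the RefSeq gene order (TAIR10.1). Of the 8, 0 passed the adjusted limma test (background 0.0044%). Around GH9C2 on chromosome 1, AT1G64370 had a log2 difference of 0.27 (SE 0.37), AT1G64380 of 0.13 (SE 0.21), AT1G64405 of 0.85 (SE 0.42) and AT1G64430 of -0.12 (SE 0.15). Their genotypes overlapped. Around EXLA1, AT3G45940 had a log2 difference of -0.09 (SE 0.10), AT3G45950 of -0.15 (SE 0.13) and AT3G45990 of -0.15 (SE 0.11), all dim. AT3G45990 was lower in rns2-2 without overlap, by a gap of 0.02 log2 units, and AT3G45940 and AT3G45950 overlapped. The annotated span of the histone gene HTB9 overlaps that of EXLA1, and HTB9 had no named probe set, so whether the EXLA1 probes also bind its transcript was not tested.

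The genes most like GH9C2 and EXLA1 were ranked by Pearson correlation of log2 signals over the 6 arrays, among 7360 other named probe sets that ranged over at least 0.5 log2 units. For GH9C2 these were AT1G74460 (r = 0.991), EXPA15 (0.988), AT1G51340 (0.987), AT2G19880 (0.986), AT5G21105 (0.981) and AT3G44940 (0.977). AT1G74460 had log2 signals of 6.66, 6.40 and 6.41 in Col-0 and of 7.80, 7.33 and 7.64 in rns2-2. As at GH9C2, replicate 2 was the lowest rns2-2 array and replicate 1 the highest Col-0 array. EXPA15 was thus the one wall gene on the lists among the 6.

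For EXLA1 they were AT3G10020 (r = 0.993), AT3G56310 (0.992), SGP1 (0.992), AT2G42920 (0.991), AT1G66890 (0.986) and AT4G05070 (0.984). AT3G10020 had log2 signals of 11.03, 11.22 and 11.05 in Col-0 and of 9.38, 9.76 and 9.88 in rns2-2, with replicate 1 lowest in rns2-2 as at EXLA1. None of these 6 was on a wall gene list. All of these correlations rest on the 6 arrays and on the genotype difference that the genes share.

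Ranked by deviations from the genotype means, which leave out the genotype difference, other genes came first. For GH9C2 these were AT5G17670 (r = 0.989), the plastid gene rpl36 of the ribosome (0.988) and AT1G16020, listed as CCZ1a (0.985). For EXLA1 they were AT4G01030 (0.999), AT3G14910 (0.998) and AT5G12440 (0.998). They were the highest of 7360 correlations for each gene over 6 arrays, so the search alone may give such values, which was not tested. The lists by level and by deviation shared 0 genes. Of the 6 genes, 3 lay the same way as their match between the genotypes and 3 the other way. AT1G16020 was higher in rns2-2, as GH9C2 was, with means of 6.93 in Col-0 and 7.32 in rns2-2. AT4G01030, with means of 4.80 and 4.71, and AT3G14910, with means of 6.48 and 6.17, were lower, as EXLA1 was. AT5G17670, with means of 10.25 in Col-0 and 9.80 in rns2-2, and rpl36, with means of 11.68 and 10.89, were lower in rns2-2 where GH9C2 was higher. AT5G12440, with means of 6.38 and 6.72, was higher where EXLA1 was lower. The genotypes overlapped at AT4G01030, rpl36 and AT5G12440. At AT5G17670, AT3G14910 and AT1G16020 they were apart by gaps of only 0.008, 0.07 and 0.10 log2 units. The directions of all 6 genes are therefore uncertain. At AT4G01030 the log2 difference was -0.10 (SE 0.16).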

How the data were processed

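Per the submitters' processing notes, the authors used Affymetrix Expression Console. The table they deposited gave each probe set a log2 signal in each array. The scale was read from the values, and the algorithm and any normalization between arrays are not given in the sources used here. Of 22810 probe sets, 64 controls were left out, and 13436 of the 22746 others had 1 gene in a platform annotation updated through RefSeq (TAIR10.1); 503 had several and 8807 none. The members and lists were chosen with earlier results of these data known. Lists were matched by locus or symbol prefix, with the brightest probe set of a locus. The test was limma (version 3.58.1, under R 4.3.3; lmFit and eBayes with genotype as the only term), two-sided, with Benjamini-Hochberg adjustment over 22746 and a threshold of 0.05; SEs are from this fit. The step was tested on 20 simulated data sets. Named were both genes, all measured GH9 and expansin-like genes, the 3 smallest unadjusted p of each other wall list, flanking loci, and the genes most alike in pattern; XTH27 is listed under EXGT-A3, and GH9 and expansin members outside the probe table are unnamed here. Alternatives were other normalizations, filters, priors and weights, a replicate block, and leaving out arrays. Same-numbered arrays deviated together at r = 0.06, -0.06 and 0.14 across probe sets. These values gave no sign of pairing by number, but with 3 arrays per genotype they cannot exclude it. The number of arrays limits the precision. If replicates 2 and 3 shared material, p-values measure partly technical spread.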

Additional observations from a re-analysis of the deposited data

How the results depend on the processing

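The sign of the GH9C2 and EXLA1 differences could not turn when arrays were left out, since both genes were chosen with genotypes that do not overlap. Filters, variance priors and array weights were run for the counts of calls, not for these differences. GH9C2 ran from 1.58 to 1.76 and EXLA1 from -1.12 to -0.95 when single arrays were left out, and GH9C2 minus EXLA1 from 2.54 to 2.82. The 1 value that moved by more than the spread between arrays was GH9C2 with the median of the arrays in place of the mean, 1.82. With the replicate block the differences were 1.64, -1.04 and 2.68, and the block changed no call. The count of called probe sets, 1, became 333 without Col-0 replicate 1, 32 without rns2-2 replicate 1, 435 with array weights and 3262 with replicates 2 and 3 only, and was 1 to 333 over all single arrays left out. The count of called wall genes besides GH9C2 and EXLA1, 0, ran from 0 to 4 without single arrays, was 4 with array weights (EXPA4, EXPA15, EXPB3 and GH9B8) and 11 with replicates 2 and 3 only (9 higher, 2 lower): CSLC6, EXPA4, EXPA8, EXPA15, EXPB3, GH9B8, GH9B13, XTH19 and XTH20, higher, and EXGT-A3 and XTH18, lower. Over all probe sets, 1.46% were called without Col-0 replicate 1, 1.91% with array weights and 14.3% with replicates 2 and 3 only. The 4 without Col-0 replicate 1 were EXPA4, EXPA8, EXPB3 and GH9B8, all higher in rns2-2. The cause was not tested. The block of the arrays with higher and lower labelling controls was chosen after seeing the data. For the dim GH9 genes, signal and background could not be separated without detection calls.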
